A study of Mus musculus with 4 samples.

Results

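Basal myoepithelial cells were sought in single-cell RNA libraries of mouse mammary tumours. A barcode was kept with at least 1000 UMIs (unique molecular identifiers, each standing for 1 captured RNA molecule) and at most 20% mitochondrial UMIs. It was gated as basal myoepithelial when Krt14, Krt5 and Krt17 together reached 5 per 10000 UMIs and at least 2 UMIs, and Acta2, Mylk, Cnn1 and Oxtr together reached 3 per 10000 UMIs. Gated cells also had 0 UMIs of Ptprc, Pecam1 and Rgs5, which mark leukocytes, endothelial cells and pericytes. This gate found 227 cells among 23572 barcodes kept. They were compared with 9256 other epithelial cells, which lay outside the gate, had Epcam, Krt8 and Krt18 together at 10 or more per 10000 UMIs and had 0 UMIs of the same 3 exclusion genes.

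The study followed tumours driven by PyMT, the polyoma middle T oncogene, in littermates aged 17 to 18 weeks. The floxed and the PyMT line had a C57BL/6 background, and none is stated for the MMTV-Cre line. Every mouse carried PyMT and Frmd8fl/fl, the floxed alleles of the scaffold gene Frmd8. Replicates 1 and 3 were MMTV-Cre-; Frmd8fl/fl; PyMT mice and replicates 2 and 4 were MMTV-Cre+; Frmd8fl/fl; PyMT mice, here called Cre- and Cre+. The study describes MMTV-Cre as acting in the luminal epithelium, so a deletion in the basal cells described here was not part of its stated design. Cells were sorted after dissociation, before the 4 libraries were made. The sources do not say whether a library came from a single mouse or from several. Each library is counted here as 1 mouse, so comparisons between genotypes rested on 2 a group and p-values measure the spread between these samples.

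The mammary duct has an inner luminal layer, which makes milk, and an outer basal layer of myoepithelial cells. Myoepithelial cells are epithelial by their keratins and by the transcription factor p63, yet carry the actin and myosin apparatus of smooth muscle, and oxytocin makes them contract to eject milk. They lie on the basement membrane, to which they contribute laminins and collagens. In healthy ducts they form a continuous layer around the lumen, and in breast tumours that layer is often reduced or lost.

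Values for the 4 libraries are given below in a fixed order, replicates 1 and 3 (Cre-) followed by replicates 2 and 4 (Cre+). The deposited matrices held 122658098, 126843597, 112729231 and 157662955 UMIs in that order, and the barcodes kept numbered 4922, 5918, 5609 and 7123. Levels are UMIs of a gene per 1000000 UMIs summed over the gated or the other epithelial cells of a library (CPM). Intervals are 95% intervals of counting error only.

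One library stood apart before any result. The matrix of Cre+ replicate 4 held all 2582424 barcodes and came from an older Cell Ranger version, and the matrices of the other libraries held 7020, 8017 and 7411 barcodes already filtered. In barcodes of 1 to 100 UMIs of Cre+ replicate 4, which mostly carry free RNA, Krt14, Krt5 and Krt17 summed to 5.07 per 10000 UMIs and Acta2, Mylk, Cnn1 and Oxtr to 1.95. That keratin background lay at the height of the gate, and the contractile background lay below it. In shallow barcodes, however, 1 contractile UMI reaches the contractile limit. Such a single UMI carried 11 of the 177 gated cells of Cre+ replicate 4 and 0 in each other library. With at least 5 keratin and 2 contractile UMIs required, 147 cells (4.90% of epithelial cells) were gated in Cre+ replicate 4. Results are given with and without this library where it mattered. Over all pairs of libraries 68 kept barcode sequences were shared, of which 0 were gated in both libraries.

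The gated cells were 0.887% of the epithelial cells in Cre- replicate 1 (19 cells, exact Clopper-Pearson interval 0.535 to 1.38%). They were 0.932% in Cre- replicate 3 (20 cells, 0.570 to 1.44%) and 0.507% in Cre+ replicate 2 (11 cells, 0.253 to 0.906%). In Cre+ replicate 4 the share was 5.85% (177 cells, 5.04 to 6.74%). The intervals of the first 3 libraries overlapped, and Cre+ replicate 4 lay above all of them. Among all barcodes kept the order was the same at the top, with 0.386, 0.338, 0.196 and 2.48%.

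The share of gated cells among epithelial cells averaged 0.910% in the Cre- mice (SD 0.0318, n = 2). In the Cre+ mice it averaged 3.18%, with an SD of 3.77 over 2 mice. The difference of 2.27 percentage points was smaller than the spread between the Cre+ mice (exact two-sided permutation test p = 1.0, the smallest p that 2 against 2 mice allow being 0.333). Without Cre+ replicate 4 the direction turned, to -0.403 percentage points. With a stricter barcode cut-off of 10978 UMIs in that library, set by the order-of-magnitude rule of Cell Ranger, 100 of 1511 epithelial cells (6.62%) were gated there. The mouse, the Cell Ranger version and the form of the deposited matrix cannot be told apart as sources of the high share.

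**Figure D1:**
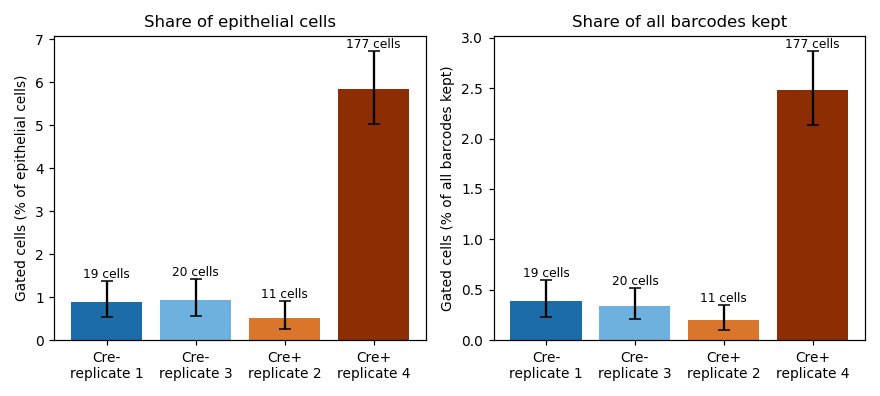
Gated basal myoepithelial cells in each library as a percentage of epithelial cells (left) and of all barcodes kept (right). Bars show the share, error bars the exact 95% binomial interval and labels the number of gated cells. Cre+ replicate 4 stands at 5.85% of epithelial cells and the other 3 libraries between 0.507 and 0.932%.

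The 4 labelled markers of the class were all present, as the gate required of their sums. Krt14, a basal keratin, stood at 601, 1233, 677 and 1671 CPM in gated cells and at 32.3, 58.0, 73.1 and 363 CPM in the other epithelial cells. Krt5, its keratin partner, stood at 849, 648, 338 and 1137 CPM against 0.0308, 0.0776, 0.694 and 2.90 CPM. Acta2, which encodes smooth muscle actin, stood at 4402, 6670, 3506 and 4650 CPM against 2.03, 30.8, 30.8 and 5.83 CPM. Oxtr, the oxytocin receptor, stood at 186, 185, 123 and 131 CPM against 3.45, 8.81, 1.99 and 0.390 CPM. These genes chose the cells, so their differences are a description and were not tested. Gated cells just inside the contractile limit held 3.50, 3.07, 3.25 and 3.03 UMIs per 10000. The highest barcodes that passed the keratin part and failed the contractile part held 0.683, 2.89, 2.98 and 2.95 per 10000.

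The gated cells were not uniform in their luminal genes. Epcam, Krt8 and Krt18 summed to 10 or more per 10000 UMIs in 8 of 19 (42.1%), 13 of 20 (65.0%), 6 of 11 (54.5%) and 22 of 177 (12.4%) gated cells. In Cre+ replicate 2 the smooth muscle myosin gene Myh11 stood at 1128 CPM in the 5 cells low in luminal genes and at 7.88 CPM, a single UMI, in the 6 cells high in them. Trp63, which encodes p63, stood there at 132 and 7.88 CPM, and Wfdc18, a luminal secretory gene, at 147 and 9492 CPM. Between the same kinds of cells Myh11 stood at 801 and 320 CPM in Cre- replicate 1, at 1747 and 158 CPM in Cre- replicate 3 and at 362 and 219 CPM in Cre+ replicate 4. The luminal-high members of the gate thus had the lower Myh11 level in every library. A doublet caller marked 1, 0, 0 and 7 of the gated cells. In Cre- replicate 1 the call fell on 1 of 8 luminal-high and 0 of 11 luminal-low cells, and in Cre+ replicate 4 on 5 of 22 and 2 of 155. Mixed droplets as a source of the luminal-high members were not tested beyond these calls.

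**Figure D2:**
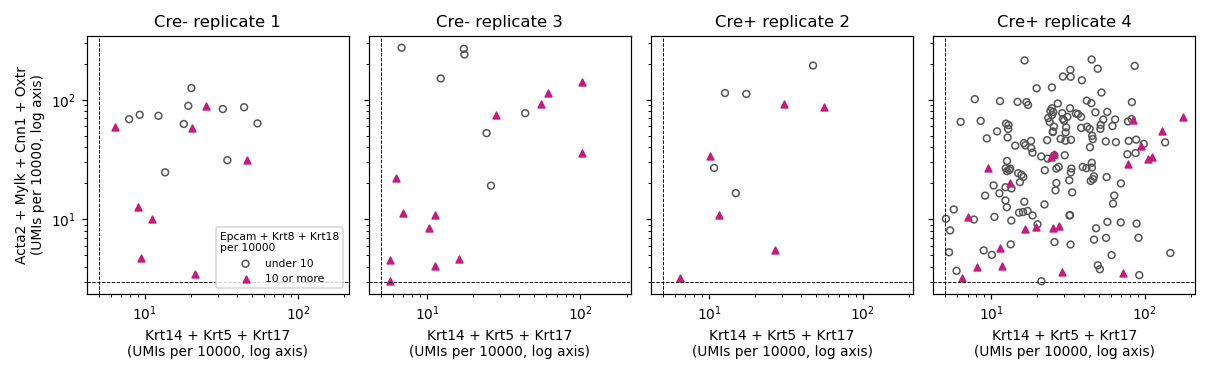
Each gated cell of the 4 libraries, by its Krt14, Krt5 and Krt17 UMIs per 10000 (horizontal, log axis) and its Acta2, Mylk, Cnn1 and Oxtr UMIs per 10000 (vertical, log axis). Dashed lines mark the limits of the gate at 5 and 3. Triangles are cells with Epcam, Krt8 and Krt18 at 10 or more per 10000, which number 8, 13, 6 and 22 in the order Cre- replicates 1 and 3 and Cre+ replicates 2 and 4.

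Depth differed between the libraries. The median gated cell held 19347, 23750, 8194 and 12759 UMIs, and the gated cells of a library summed to 450976, 598696, 195084 and 3343822 UMIs. A single cell held 33.3% of the gated UMIs of Cre+ replicate 2, and the deepest cell held 13.7, 13.1 and 2.65% in Cre- replicates 1 and 3 and Cre+ replicate 4. Gated levels were thus most precise in Cre+ replicate 4 and least precise in Cre+ replicate 2. The deepest cell of each library was luminal-high, with Epcam, Krt8 and Krt18 at 15.3, 47.9, 60.3 and 34.7 per 10000. Gated cells under 10 per 10000 held 207319, 238705, 68241 and 2923754 UMIs. Luminal-high cells thus gave the larger part of the gated UMIs in both Cre- libraries and in Cre+ replicate 2. Pooled gated levels there are not those of luminal-low cells alone.

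Frmd8, the targeted gene, was seen in few UMIs. It stood at 22.2 CPM (10 UMIs) and 21.7 CPM (13 UMIs) in the gated cells of Cre- replicates 1 and 3. In the gated cells of Cre+ replicate 2 it had 0 UMIs, which allows up to 15.4 CPM (3 counts), and in those of Cre+ replicate 4 it stood at 3.29 CPM (11 UMIs). In the other epithelial cells Frmd8 stood at 24.4, 24.3, 5.82 and 10.6 CPM. The Cre+ libraries were below the Cre- libraries in both classes, although in gated cells the limit of 15.4 CPM for Cre+ replicate 2 lay above the lower ends of the exact Poisson intervals of the Cre- libraries, 10.6 and 11.6 CPM. The genotype difference in gated cells was -2.73 ± 0.91 on the log2 scale (fitted value ± SE, 2 against 2 mice) and did not pass the adjustment (edgeR quasi-likelihood test, unadjusted p = 0.023, adjusted p = 1.00). The genotype effect on Frmd8 was not distinguishable between gated and other epithelial cells (interaction -1.63, adjusted p = 1.00). The counts come from the 3' ends of transcripts, which can lie outside the floxed exons, so they bear only in part on the deletion.

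**Figure D3:**
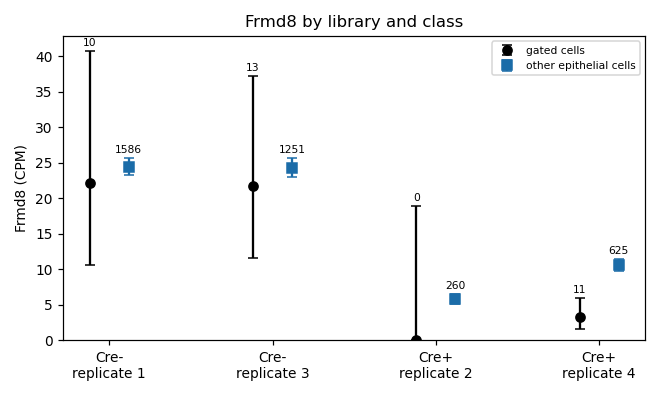
Frmd8 level (CPM) in the gated cells (circles) and the other epithelial cells (squares) of each library. Error bars are exact two-sided 95% Poisson intervals, whose upper end at 0 UMIs is wider than the limit of 3 counts, and the labels give UMIs. Gated cells hold 10, 13, 0 and 11 UMIs, and the Cre+ libraries lie below the Cre- libraries in both classes.

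The gated cells were next compared with the other epithelial cells of the same mice, with the mouse as a block and the 13 genes used to choose either class left out. Of 13834 genes tested, 809 were higher and 695 lower in gated cells, 10.9% in all (5.85% higher and 5.02% lower, edgeR quasi-likelihood test, adjusted p under 0.05). The median log2 fold change over all genes tested was -0.103. Since the cells were chosen on some genes, those that go with them must differ too, and the calls describe which other genes do. The count was 861 without Cre- replicate 1.

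The contractile apparatus was higher in the gated cells. Of 18 tested genes of this list 16 were higher and 0 lower, with a median log2 fold change of 2.10. Tagln, which encodes the actin-binding protein transgelin, stood at 3262, 4739, 3711 and 1786 CPM in gated cells and at 5.40, 22.7, 22.3 and 11.9 CPM in the other epithelial cells. Its log2 fold change was 7.77 ± 0.40 (SE, 4 mice, adjusted p = 1.3e-05 by edgeR). Every gated value lay far above every other epithelial value. Myh11 stood at 541, 792, 400 and 344 CPM against 0.123, 1.07, 11.7 and 0.559 CPM (8.88 ± 1.09, edgeR adjusted p = 0.0012). Myl9, the regulatory light chain of smooth muscle myosin, stood at 679, 922, 543 and 614 CPM against 2.74, 24.2, 7.75 and 1.02 CPM (edgeR adjusted p = 0.00041). For both myosin genes the gated and the other epithelial values did not overlap in any library. Tpm2, a tropomyosin that lies along actin filaments, stood at 2406, 2631, 1789 and 1680 CPM against 36.3, 77.8, 47.9 and 21.8 CPM. Actg2, the gamma actin of smooth muscle, was less even, at 315, 488, 41.0 and 88.8 CPM, with both Cre+ libraries lower than both Cre- libraries. This genotype difference was not called by edgeR (-2.37 ± 0.50). The order of 2 against 2 mice alone cannot give an exact permutation p under 0.333. Myl6, the light chain shared with non-muscle myosin, was abundant in both classes, at 2685, 3376, 2686 and 2055 CPM against 1189, 1668, 1146 and 843 CPM (1.08 ± 0.15, edgeR adjusted p = 0.0024). The members that did not pass the test were Cnn3 and Csrp1, and Des and Kcnmb1 were too low to be tested.

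Serum response factor binds the CArG box and, with myocardin or its relatives, drives genes of the contractile apparatus in smooth muscle. The CArG box was searched on both strands (it reads alike on both) in the 250 bases before the start of each RefSeq transcript of the mouse assembly GRCm38.p6. Of the 24 genes of the contractile lists 21 had a promoter in the table, with 24 windows in all, and 3 windows (12.5%) held the box, against 482 of 32851 windows (1.47%) over all genes. The 3 promoters are shown because their genes passed the test in gated cells. They are Myl9 at chr2:156775273-156775342 on the plus strand, Cnn2 at chr10:79988514-79988583 on the plus strand and Myl6 at chr10:128493020-128493089 on the minus strand. Capitals mark the box, which starts 161, 56 and 50 bases before the transcript start.
Myl9: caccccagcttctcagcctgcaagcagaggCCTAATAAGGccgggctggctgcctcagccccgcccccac
Cnn2: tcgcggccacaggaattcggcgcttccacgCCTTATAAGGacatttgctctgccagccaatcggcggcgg
Myl6: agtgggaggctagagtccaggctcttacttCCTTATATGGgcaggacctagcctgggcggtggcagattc
A match is a description of the sequence and not a measured binding site. Tagln, Myh11 and Actg2 are not in the promoter table. Cnn2, a calponin of non-muscle and smooth muscle cells, stood at 251, 398, 251 and 216 CPM in gated cells and at 41.7, 125, 34.0 and 25.2 CPM in the other epithelial cells (2.46 ± 0.25, edgeR adjusted p = 0.00045).

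Of 7 tested genes of the regulators and targets of serum response factor 3 were higher and 0 lower (median 1.04). Ccn2, which encodes the matrix-associated factor CTGF, stood at 727, 1376, 1287 and 197 CPM in gated cells against 39.8, 171, 50.4 and 81.0 CPM (3.23 ± 0.50, edgeR adjusted p = 0.0036). Vcl, which encodes the adhesion protein vinculin, was called at 1.57 ± 0.34. With the study's upper limits of 5000 genes and 30000 UMIs a cell only 2 libraries kept 10 gated cells, and Vcl stood there at 0.71 (adjusted p = 0.33), against 1.29 (0.0051) with all 4 libraries kept under those limits. Its adjusted p rose to between 0.057 and 0.064 when Cre- replicate 1, Cre- replicate 3 or Cre+ replicate 2 was left out. Ccn1, also among the most abundant tested genes of the list, stood at 523, 1780, 390 and 231 CPM against 873, 1674, 646 and 327 CPM and was not called (-0.56). Srf itself and its partners Mrtfa and Mrtfb did not pass the test. Myocd, which encodes myocardin, was too low to be tested and was chosen after its values were seen. It had 0, 3, 0 and 167 UMIs in gated cells, so that nearly all of its UMIs came from Cre+ replicate 4. Its level in Cre+ replicate 4 was 49.9 CPM, from a gated pool of 3343822 UMIs. The gated pools of Cre- replicates 1 and 3 and Cre+ replicate 2 held 450976, 598696 and 195084 UMIs. The part of depth and of luminal-high cells in this difference was not tested.

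Genes of signalling to the contractile apparatus were called in both directions. Of 17 tested genes 2 were higher, 2 lower and 13 not called, with a median of 0.159. Over all genes tested 10.9% were called. Ppp1r12a, the targeting subunit of myosin phosphatase, stood at 126, 174, 92.3 and 170 CPM against 61.7, 71.1, 57.7 and 51.4 CPM (1.14 ± 0.21). Plcb4, a phospholipase C, stood lower, at 17.7, 6.68, 10.3 and 2.69 CPM against 49.9, 30.5, 39.3 and 34.8 CPM (-2.57 ± 0.39). The small GTPase gene Rhoa and its kinase gene Rock1 did not pass the test, with fold changes of 0.03 ± 0.16 and 0.03 ± 0.16.

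Regulators of basal identity were next. Of 12 tested genes 4 were higher and 0 lower, with a median of 2.13. Trp63 stood at 151, 88.5, 51.3 and 91.5 CPM in gated cells and at 3.05, 2.19, 6.81 and 0.882 CPM in the other epithelial cells (5.23 ± 0.56, edgeR adjusted p = 0.0006). A UMI of Trp63 was seen in 13 of 19, 14 of 20, 3 of 11 and 90 of 177 gated cells, and in 5.75, 3.72, 9.18 and 1.40% of the other epithelial cells. After thinning to 2000 UMIs a cell, with 1, 0, 0 and 22 shallower gated cells left out, 7 of 18, 1 of 20, 0 of 11 and 24 of 155 gated cells had one. Thinned levels were thus too sparse to order the libraries.

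Id4, an inhibitor of bHLH factors found in basal cells, stood at 326, 96.9, 97.4 and 511 CPM against 1.14, 1.96, 2.22 and 4.41 CPM (6.50 ± 0.49). Snai2, which encodes the transcription factor Slug, stood at 53.2, 35.1, 15.4 and 83.4 CPM against 0.431, 1.34, 1.25 and 0.186 CPM (6.11 ± 0.81). In each library both lay higher in the gated cells. Krt15, a keratin of basal and progenitor cells, stood at 37.7, 63.5, 15.4 and 883 CPM against 6.25, 3.22, 3.05 and 4.66 CPM (higher in the gated cells of 4 of 4 mice, edgeR adjusted p = 0.013). Cre+ replicate 4 was far above the others, and the other Cre+ mouse was the lowest. Irx4, a homeobox gene with the fifth largest fold change among the genes named by size, stood at 62.1, 65.1, 25.6 and 130 CPM against 0.123, 0.718, 0.179 and 0.254 CPM.

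**Figure D4:**
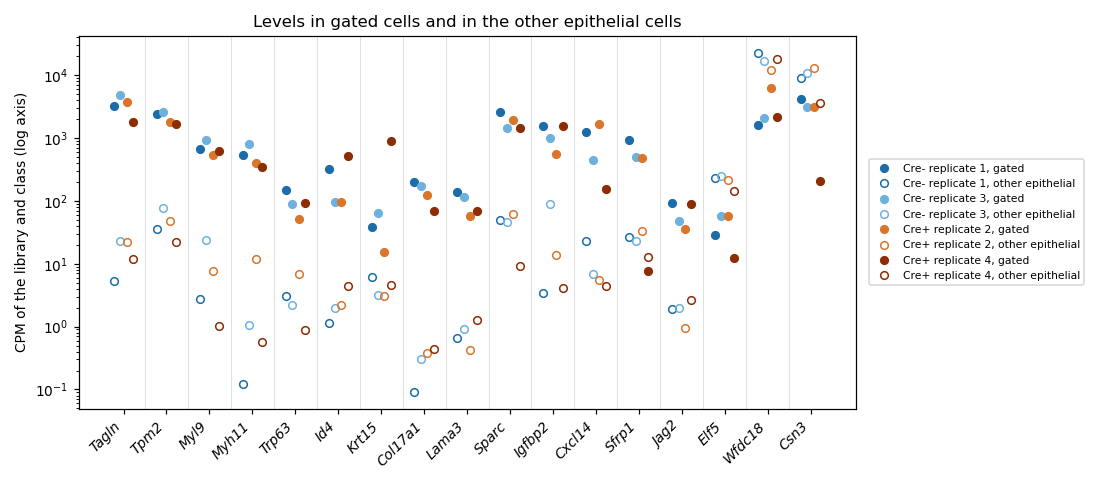
Levels (CPM, log axis) of 17 genes in the gated cells (filled) and the other epithelial cells (open) of each library. Contractile, basal and matrix genes such as Tagln, Trp63 and Col17a1 lie higher in the gated cells of all 4 libraries, Elf5, Wfdc18 and Csn3 lie lower, and Sfrp1 in Cre+ replicate 4 lies at 7.78 against 12.7 CPM.

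Genes that attach basal cells to the matrix were higher in gated cells. Of 17 tested genes of integrins and hemidesmosomes 11 were higher and 0 lower (median 1.39), and of 22 tested genes of the basement membrane 18 were higher and 0 lower (median 2.77). Col17a1, a transmembrane collagen of hemidesmosomes, stood at 200, 174, 123 and 67.9 CPM against 0.0923, 0.310, 0.381 and 0.441 CPM (8.68 ± 0.56, edgeR adjusted p = 4.4e-05). Both Cre+ libraries lay below both Cre- libraries, but the genotype difference in gated cells was not called by edgeR (-0.97 ± 0.36). Itgb1, the shared beta subunit of many laminin and collagen receptors, stood at 570, 536, 589 and 218 CPM against 187, 202, 187 and 127 CPM (1.27 ± 0.18). Dag1, which encodes the laminin receptor dystroglycan, changed by 1.35 ± 0.21. Itga6, the laminin-binding alpha subunit often used to sort basal cells, did not pass the test (0.37 ± 0.25, edgeR adjusted p = 0.43).

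Among the genes of the basement membrane Lama3, a chain of laminin-332, stood at 137, 114, 56.4 and 68.2 CPM against 0.662, 0.912, 0.425 and 1.25 CPM (6.72 ± 0.36, edgeR adjusted p = 1.3e-05). Col7a1, the collagen of anchoring fibrils, stood at 304, 127, 71.8 and 66.7 CPM against 1.69, 1.09, 4.05 and 1.56 CPM (5.99 ± 0.55). Col4a1, a chain of network-forming collagen IV, stood at 335, 555, 323 and 382 CPM against 37.0, 99.9, 33.4 and 5.27 CPM (3.59 ± 0.56), and Col4a2, its partner, changed by 4.11 ± 0.51. All gated values of these 4 genes lay above all other epithelial values. Sparc, a collagen-binding matrix protein, stood at 2608, 1428, 1897 and 1421 CPM against 49.9, 46.2, 61.3 and 9.29 CPM (5.60 ± 0.43, edgeR adjusted p = 0.00012).

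Adhesion between cells was mixed, with 3 of 17 tested genes higher, 4 lower and 10 not called (median -0.438). Perp, a desmosomal gene under p63 control in stratified epithelia, stood at 468, 398, 354 and 204 CPM against 67.2, 88.3, 77.3 and 117 CPM (1.90 ± 0.29). The tight junction genes Cldn3, Cldn7 and Ocln were lower. Cldn3 stood at 153, 476, 887 and 101 CPM against 1022, 1157, 950 and 1118 CPM (-1.99 ± 0.48, edgeR adjusted p = 0.028). The gated cells of Cre+ replicate 2 came close to the other epithelial cells. This call was lost without Cre- replicate 1 (-1.69, adjusted p = 0.11) and, at a larger fold change, with called doublets removed (-2.43, adjusted p = 0.097).

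Secreted factors known from myoepithelial cells were mostly higher, 13 of 25 tested genes with 0 lower (median 1.77). Igfbp2, which binds insulin-like growth factors, stood at 1577, 990.5, 564 and 1557 CPM against 3.37, 88.2, 13.7 and 4.05 CPM (log2 fold change 6.57, edgeR adjusted p = 0.0037). Cxcl14, a chemokine, stood at 1240, 443, 1686 and 153 CPM (6.15 ± 0.49), with Cre+ replicate 4 the lowest. Apoe, which encodes a lipid carrier, stood at 2235, 870, 2799 and 2114 CPM against 49.3, 141, 141 and 118 CPM (4.07 ± 0.42). Igfbp5, a binding protein linked to involution, was high in both classes and called at 1.76 ± 0.38, and it lost its call without Cre- replicate 1 (adjusted p = 0.083).

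Sfrp1, a secreted inhibitor of Wnt signals, stood at 929, 496, 472 and 7.78 CPM in gated cells and at 26.4, 22.7, 33.0 and 12.7 CPM in the other epithelial cells. It was higher in the gated cells of 3 mice and not in those of Cre+ replicate 4. The fold change was 3.46 ± 0.86 (edgeR adjusted p = 0.033), and the call was lost when Cre- replicate 1, Cre- replicate 3 or Cre+ replicate 2 was left out (adjusted p from 0.11 to 0.13).

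Of 10 tested genes of the Notch list the 3 called were the ligands Jag1, Jag2 and Dll1, all higher in gated cells (median of the list -0.529). The ligand gene Dll4 had 0 UMIs in all gated sums and was not tested. No tested Notch receptor or target gene was called. Jag2 stood at 90.9, 48.4, 35.9 and 87.9 CPM against 1.91, 1.96, 0.940 and 2.61 CPM (5.04 ± 0.26, edgeR adjusted p = 1.3e-05). Dll1 stood at 59.9, 33.4, 61.5 and 45.5 CPM against 5.20, 3.61, 39.9 and 0.492 CPM, so that its margin was narrow in Cre+ replicate 2. The receptor gene Notch1 (-0.76 ± 0.24, edgeR adjusted p = 0.080) and the target gene Hes1 (-0.93 ± 0.32, 0.11) were on the lower side without passing.

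Genes linked to a mesenchymal state were higher for 7 of 12 tested genes and lower for 0 (median 3.00). Vim, which encodes the intermediate filament vimentin, stood at 1224, 702, 364 and 165 CPM against 40.6, 77.1, 53.6 and 11.5 CPM (3.59 ± 0.35). Postn, which encodes the matrix protein periostin, stood at 1073, 1174, 415 and 127 CPM against 21.3, 25.1, 13.2 and 2.48 CPM (5.38 ± 0.22, edgeR adjusted p = 1.3e-05). In both, the Cre- libraries lay above the Cre+ libraries in gated cells, but neither genotype difference was called by edgeR. Fn1, which encodes fibronectin, had 9, 14, 224 and 5 UMIs in gated cells. It stood at 1148 CPM in those of Cre+ replicate 2 against 34.6 CPM in the other epithelial cells there, was lower in the gated cells of the other 3 libraries and was not called (0.31 ± 1.10, edgeR adjusted p = 0.93). The regulators Zeb1, Zeb2, Twist1 and Snai1 did not pass the test. Dcn, a matrix proteoglycan, stood at 488, 202, 528 and 1212 CPM against 27.8, 14.5, 68.3 and 6.54 CPM (4.37 ± 0.70).

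**Figure D5:**
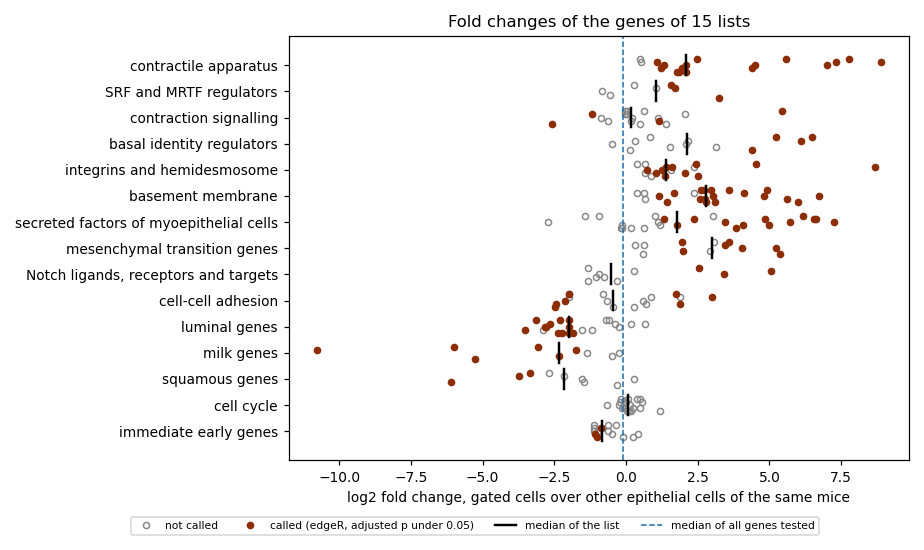
Log2 fold changes of the tested genes of 15 lists, gated over other epithelial cells of the same mice. Filled points passed the test, black bars are list medians and the dashed line is the median of all genes tested (-0.103). Contractile genes have a median of 2.10, basement membrane genes 2.77, luminal genes -1.98 and cell cycle genes 0.0606, and the leftmost milk gene (Csn1s2a) had 0 UMIs in gated cells, so that its fitted value is no bound.

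Luminal genes were lower in gated cells for 12 of 21 tested and higher for 0 (median -1.98). Wfdc18 stood at 1579, 2060, 6223 and 2184 CPM against 22483, 16628, 11830 and 18135 CPM (-2.83 ± 0.41, edgeR adjusted p = 0.0027), and in the barcodes of 1 to 100 UMIs of Cre+ replicate 4 at 9527 CPM. Mfge8, a milk fat globule gene and the other way in 3 of 4 mice, stood at 818, 862, 871 and 156 CPM against 410, 349, 363 and 231 CPM (0.67 ± 0.29, edgeR adjusted p = 0.19). The keratin gene Krt7 stood at 64.3, 179, 420 and 158 CPM against 341, 107, 125 and 404 CPM and was not called. Elf5, a transcription factor of milk-producing luminal cells, stood at 28.8, 56.8, 56.4 and 12.3 CPM against 234, 252, 218 and 143 CPM (-2.80 ± 0.27). Wfdc18 and Elf5 were lower in the gated cells of every mouse. The hormone receptor genes were at the limit of detection in gated cells, with 5, 0, 0 and 2 UMIs of Esr1 and 7, 0, 0 and 10 UMIs of Pgr, and differences between the classes were not detectable at this depth. Of the receptors of the EGF family Egfr rose, with 23, 31, 17 and 111 UMIs in gated cells, and was higher there in all 4 mice (1.05 ± 0.21, edgeR adjusted p = 0.012). It lost its call in the fit without the mouse as a block (adjusted p = 0.22), with the study's upper limits (0.80, adjusted p = 0.47 in 2 libraries, and 0.89, 0.12 in all 4) and without Cre- replicate 1 (adjusted p = 0.051). The ligand gene Hbegf stood at 57.7, 107, 164 and 19.7 CPM against 176, 137, 121 and 215 CPM and was not called (-1.34). Erbb3 was lower (-1.87 ± 0.50, edgeR adjusted p = 0.043). Its call was lost with doublets removed (-2.16, adjusted p = 0.12), without Cre- replicate 1 (0.099) and without Cre+ replicate 2 (0.060).

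Milk genes were lower for 6 of 9 tested and higher for 0, with a median of -2.32. Csn3, which encodes kappa-casein, stood at 4169, 3108, 3137 and 205 CPM against 8975, 10782, 12977 and 3565 CPM (-2.32 ± 0.42, edgeR adjusted p = 0.0083). The call was lost with doublets removed (-2.67, adjusted p = 0.054) and without the mouse as a block (0.14). Its level in the gated cells of Cre+ replicate 4 was the lowest, below the 1541 CPM of the barcodes of 1 to 100 UMIs of that library. Wap, the whey acidic protein, had 6, 2, 1 and 0 UMIs in gated cells and stood at 449, 56.3, 77.9 and 23.5 CPM in the other epithelial cells. Pigr, which carries antibodies into milk, had 2, 2, 1 and 10 UMIs in gated cells against 102, 64.4, 73.5 and 54.4 CPM (-4.30 ± 0.26). Car6, a secreted carbonic anhydrase, had 1, 1, 1 and 16 UMIs.

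Squamous genes were lower for 3 of 9 tested and higher for 0 (median -2.17). The 3 most abundant tested members were not called and differed in direction between libraries. Dmkn stood at 2.22, 3.34, 179 and 57.7 CPM against 45.6, 14.8, 18.2 and 643 CPM, and Sbsn at 2.22, 6.68, 108 and 17.9 CPM against 31.3, 15.6, 20.5 and 190 CPM, each higher in the gated cells of Cre+ replicate 2 only. Krt10, a keratin of differentiating epidermis, stood at 11.1, 25.1, 41.0 and 42.2 CPM against 14.2 to 25.3 CPM, higher in 3 of 4 mice. Krt6a, a keratin of stressed and squamous epithelia, had 0 UMIs in the gated cells of 3 libraries and stood at 15.3 CPM (51 UMIs) in Cre+ replicate 4. In the other epithelial cells it stood at 17.8, 1.84, 2.22 and 130 CPM. In Cre+ replicate 4 the gated cells of 1000 to 3000 UMIs held it at 696 CPM, and 43 of its 51 UMIs came from these 34 shallow cells. Its call was lost in the fit without the mouse as a block (edgeR adjusted p = 0.39) and with the study's upper limits in 2 libraries (-1.15, adjusted p = 0.18).

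Genes of the cell cycle were not called across the mice. Of 20 tested cell cycle genes 0 were called by edgeR in either direction, with a median of 0.0606, and 2 had an unadjusted p under 0.05. Mki67, which marks cycling cells, stood at 71.0, 98.5, 0 and 122 CPM in gated cells and at 42.6, 68.5, 45.3 and 53.0 CPM in the other epithelial cells (0.37 ± 0.46, edgeR adjusted p = 0.71). After thinning to 2000 UMIs a cell 17 of 155 gated cells of Cre+ replicate 4 (exact interval 6.52 to 17.0%) had a Mki67 UMI and 4.04% of the other epithelial cells there (93 of 2302, 3.27 to 4.93%). Before thinning the shares were 22.6 and 13.5%. In the other libraries 0 or 1 thinned gated cell had one. Of 15 immediate early genes 3 were lower and 12 not called (median -0.825). The 3 most abundant, Fos, Jun and Junb, were not called (-0.62, -0.98 and -0.49) and were higher in the gated cells of 1 of 4 mice each. Of 16 genes of hypoxia and glycolysis 1 was higher and 3 lower (median -0.192), among them the glycolytic enzyme gene Aldoa at -0.67 ± 0.16 (edgeR adjusted p = 0.027), a call that was lost when Cre- replicate 1, Cre- replicate 3 or Cre+ replicate 2 was left out. The fold change of Aldoa was -0.17 (adjusted p = 0.69) with the gate applied to counts thinned to 2000 UMIs a cell, shallower cells left out and the full counts of the chosen cells summed. Its call was kept in gated cells low in luminal genes with all 4 libraries (-0.85, adjusted p = 0.017) and lost with the 2 libraries that had 10 such cells (-0.76, 0.20). Ldha (-0.56) and Eno1 (-0.17), also glycolytic, were not called. A list around FRMD8 held 7 tested genes, Frmd8, Foxo3, Ube3a, Rhbdf1, Rhbdf2, Adam17 and Adam10. Only Foxo3, a transcription factor gene, was called, at 15.5, 23.4, 51.3 and 22.1 CPM against 40.8, 49.5, 47.2 and 46.2 CPM (-0.97 ± 0.25, edgeR adjusted p = 0.039). In Cre+ replicate 2 it was not lower. Its adjusted p lay between 0.066 and 0.14 when Cre- replicate 1, Cre- replicate 3 or Cre+ replicate 4 was left out. It was 0.36 with the study's upper limits in 2 libraries and 0.29 in all 4, and 0.19 with the gate on thinned counts (-0.65). In gated cells low in luminal genes it was 0.068 in 2 libraries and 0.015 in all 4. The ubiquitin ligase gene Ube3a was not called (-0.06 ± 0.17, edgeR adjusted p = 0.91).

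Among the genes with the largest fold changes outside the lists, Cntn2, an adhesion molecule best known from axons, had 81, 27, 3 and 5 UMIs in gated cells and 2, 10, 0 and 2 UMIs in the far larger pool of other epithelial cells (9.28 ± 0.99, edgeR adjusted p = 0.0006). Most of its gated level came from the Cre- libraries, at 180 and 45.1 CPM. Sostdc1, a secreted inhibitor of BMP and Wnt signals, stood at 79.8, 26.7, 15.4 and 152 CPM (7.87 ± 0.67). Emb, which encodes the membrane glycoprotein embigin, stood at 415, 127, 282 and 222 CPM against 0.908, 2.02, 2.13 and 1.73 CPM (7.10 ± 0.46). The unnamed transcript Gm19935 was also in this group, at 7.15 ± 0.64. Among the lower genes outside the lists, 2310057J18Rik had 0, 0, 0 and 1 UMIs in gated cells. In the other epithelial cells it stood at 118, 8.07, 13.1 and 20.6 CPM. Bpifb5 had 1, 0, 1 and 3 UMIs in gated cells and Scgb2b27 had 1, 22, 4 and 217 UMIs. Scgb1b27, Cst6 and Atp2a3 were also lower and lost their calls without the mouse as a block.

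Markers of other cell types were read in the same cells. Immune genes other than Ptprc summed to 308, 149, 600 and 440 CPM in gated cells and to 108, 330, 219 and 503 CPM in the other epithelial cells, led by Cd74 in 3 of the 4 gated sums. The B cell gene Cd79a was at 0 in all gated sums. Of 12 tested immune genes 0 were higher and 2 lower (median 0.617). Of the barcodes with Ptprc UMIs 0 of 1794, 1 of 2405, 0 of 2132 and 20 of 2857 (0.700%) would have passed the keratin and contractile limits.

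Fibroblast genes summed to 641, 349, 774 and 1302 CPM against 206, 167, 322 and 35.5 CPM, and Dcn made up 488, 202, 528 and 1212 CPM of the gated sums. Among 10 tested fibroblast genes Dcn was the only one higher and Col1a1 and Dpp4 were lower (median -0.220), while Pdgfra was at 0 in the gated cells of Cre+ replicate 4. Pericyte and vascular smooth muscle genes summed to 68.7, 90.2, 97.4 and 95.7 CPM against 60.2, 47.9, 60.6 and 21.2 CPM, higher in the gated cells of every library. Ndufa4l2 gave 249 of the 320 UMIs of Cre+ replicate 4, and Higd1b and Heyl were at 0 in all gated sums. Endothelial genes summed to 17.7, 8.35, 0 and 8.67 CPM against 11.1, 5.92, 8.35 and 10.2 CPM. Of these genes Cdh5, Emcn, Cldn5 and Tie1 were at 0 in all gated sums. Of 6 tested pericyte genes Pdgfrb and Gucy1b1 were higher (median -0.214), and of 5 tested endothelial genes 0 were called. The call of Gucy1b1 was lost without Cre- replicate 1 (adjusted p = 0.078), without Cre- replicate 3 (0.097) and without the mouse as a block (0.068). Skeletal muscle genes summed to between 5.01 and 10.3 CPM with 0 of 3 tested genes called, adipocyte genes to at most 1 UMI, and of 5 tested Schwann cell genes Pmp22 was higher and Mbp lower. The Mbp call was lost with the study's upper limits (-1.85, adjusted p = 0.10 in 2 libraries, and -1.24, 0.25 in all 4). The part of other cells in the Dcn difference was not tested.

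Within the gated cells the genotypes were compared over the mice. The gated pools also differed in their luminal-high part, with 8 of 19, 13 of 20, 6 of 11 and 22 of 177 cells. The comparison is thus one of gated pools and not of a basal program alone. In gated cells low in luminal genes, with libraries under 10 such cells kept, edgeR called 0 of 3475 genes tested. Over all gated cells, of 6760 genes tested 0 were called (0.0%) by edgeR, 289 had an unadjusted p under 0.05, and DESeq2 called 4. None of the 5 genes with the smallest p was called by edgeR. Their groups did not overlap, which picking by p from 2 mice a genotype nearly fixes beforehand. DESeq2 called Dmkn (adjusted p = 0.0040) and Vcam1 (0.0034) among them, and edgeR called all 5 without a filter on low counts. Col9a1, a cartilage collagen, stood at 48.8 and 50.1 CPM in Cre- and at 5.13 and 2.09 CPM in Cre+ mice (-4.14 ± 0.57, edgeR unadjusted p = 0.00027, adjusted p = 1.00). Vcam1, an adhesion molecule for leukocytes, stood at 262 and 88.5 CPM in Cre- and at 20.5 and 3.59 CPM in Cre+ mice (-4.71 ± 0.92). Scx, a tendon transcription factor, had 23 and 52 UMIs in Cre- and 2 and 23 UMIs in Cre+ mice, whose gated pool was deepest in replicate 4 (-3.04 ± 0.49). In the other direction Dmkn, a gene of squamous epithelia, stood at 2.22 and 3.34 CPM in Cre- and at 179 and 57.7 CPM in Cre+ mice (5.25 ± 0.77). Krt83, a hair keratin, had 0 UMIs in both Cre- libraries and 4 and 128 UMIs in the Cre+ libraries. Several of these values rest on few UMIs, with 1 UMI of Col9a1 and 4 UMIs of Vcam1 in Cre+ replicate 2. The number of genes called was 177 without Cre+ replicate 2, 23 without Cre+ replicate 4, 8 without Cre- replicate 3 and 2 without Cre- replicate 1, each time with a lone mouse assumed to vary like the other genotype.

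The genotype effect in gated cells was then compared with that in the other epithelial cells by an interaction term. Of 15045 genes tested 66 were called (0.439%), 21 with a more positive (0.14%) and 45 with a more negative effect (0.299%) in gated cells. DESeq2 called 5. The edgeR count was 435 without Cre+ replicate 2, 104 without Cre+ replicate 4 and 32 without Cre- replicate 1. In the lists named above Krt15, Col4a1, Wif1 and Ndufa4l2 were among the 21, and Myh11, Col17a1, Col7a1, Sfrp1, Nrg1, Lalba, Krt16 and Asprv1 among the 45. Cre+ replicate 4 stood apart for several of these. Wif1 stood at 4.43, 26.7, 0 and 130 CPM in gated cells. In the other epithelial cells Krt16 stood at 0.662, 0.931, 0.425 and 116 CPM and Asprv1 at 25.2, 17.2, 18.8 and 486 CPM. Myh11 stood there at 0.123, 1.07, 11.7 and 0.559 CPM, highest in Cre+ replicate 2. Col4a1 stood there at 37.0, 99.9, 33.4 and 5.27 CPM, lowest in Cre+ replicate 4. Their genotype differences in gated cells were -0.75 ± 0.36 and -0.22 ± 0.40, neither called by edgeR. Lalba had 154, 1, 2 and 9 UMIs in gated cells. Vcam1 gave an interaction of -4.99 ± 0.64 on the log2 scale (edgeR adjusted p = 3.7e-08). This call was lost without Cre- replicate 1. Vcam1 stood at 0.923, 0.815, 0.918 and 1.14 CPM in the other epithelial cells, nearly level between the genotypes, while the gated values were higher in both Cre- mice. For Krt15 the interaction was 2.35 ± 0.62 (edgeR adjusted p = 0.049), and it rested on Cre+ replicate 4, the library with the other file form, since the gated cells of Cre+ replicate 2 held the lowest level. With 2 mice a genotype these calls measure the spread between these mice only.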

How the data were processed

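Counts were deposited as matrices of UMI counts per gene and barcode, which the authors made with Cell Ranger (versions 4 and 6.1.2 in the submitters' processing notes, which name hg38 although the gene identifiers are mouse). Droplet libraries of tumours, 2 a genotype, were analysed. The members and gene lists were chosen with earlier results of these data known. Barcodes with at least 1000 UMIs and at most 20% mitochondrial UMIs were kept, and UMIs were summed per library and class for libraries of at least 10 gated cells. Called doublets (the highest Scrublet scores in scanpy 1.11.5, 0.8% of barcodes per 1000 kept) stayed in, and their removal was an alternative, as was a gate applied to counts thinned to 2000 UMIs a cell, which leaves out shallower cells and sums the full counts of the cells it chooses. Sums were tested with edgeR 4.0.16 in R 4.3.3 (quasi-likelihood test, TMM factors, filterByExpr, Benjamini-Hochberg adjustment, threshold 0.05). The class and interaction fits had the mouse as a block, which rests on both sums coming from the same library. The 13 genes that chose the classes were left out of all 3 fits. DESeq2 1.42.0 was an alternative. The study's filter is printed as removing cells under 30000 UMIs and cells of 200 to 5000 genes. It was read here as upper limits of 30000 UMIs and 5000 genes a cell. Shares were compared with the exact permutation test in scipy 1.17.1 under Python 3.11.15. All 3 fits were run on simulated counts with a fixed spread and no differences between mice. That does not show how they behave at the spread of these mice.

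Genes named are those of the gate, up to 10 a direction with the largest class fold change (called, at least 20 CPM in the higher class, same direction in every mouse), the 3 most abundant tested members of each list, of which those not called are given in part, and Trp63, Krt15, Tagln, Myh11, Frmd8, Esr1, Pgr, Foxo3 and Ube3a. For the genotype fit the 5 genes with the smallest p and for the interaction up to 5 a direction whose ratios of gated to other epithelial levels, with 0.5 UMIs added, do not overlap between genotypes were named. Snai2, Lama3, Col7a1, Elf5, Sfrp1, Krt6a, Cnn2, Plcb4, Dll1, Cxcl14, Mki67 and Myocd, and members named without values, were chosen after their values were seen.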

Additional observations from a re-analysis of the deposited data

Results flagged for a closer look

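For 10 genes the genotype effect differed between the gated and the other epithelial cells by the interaction term of edgeR (adjusted p under 0.05). They were picked by ratios of gated to other epithelial levels, with 0.5 UMIs added, that did not overlap between the genotypes. Without that addition the ratios of a overlap and those of Ndufa4l2 are tied at 0. Values below are CPM in the gated cells in the order Cre- replicates 1 and 3 and Cre+ replicates 2 and 4, then the interaction on the log2 scale.

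The serum amyloid genes Saa1 (22.2, 5.01, 10.3 and 112, interaction 4.07) and Saa2 (4.43, 1.67, 5.13 and 71.8, interaction 5.52) and the histone gene Hist1h2ap (4.43, 5.01, 5.13 and 94.2, interaction 3.20) were highest in Cre+ replicate 4. Without Cre+ replicate 4 the interactions of Saa1, Saa2 and Hist1h2ap were 0.118, 1.16 and 0.939, each with an adjusted p of 1.0. Hist1h2ap also lost its call without Cre- replicate 3 (2.36) and fell to 0.0672 with the study's upper limits and all libraries kept. With called doublets removed the interactions of Saa1 and Saa2 were -0.676 and -0.157, and with the gate applied to counts thinned to 2000 UMIs a cell they were -0.188 and 0.405. Ndufa4l2, a gene of the pericyte list, had 0 UMIs in 3 libraries and stood at 74.5 in Cre+ replicate 4, and its interaction of 11.9 is a fitted value and no bound. Its call was lost without Cre- replicate 1, Cre- replicate 3 or Cre+ replicate 4. Espn, an actin-bundling gene, stood at 2.22, 10.0, 25.6 and 76.9 (interaction 3.10). Its adjusted p in edgeR was 0.078 without Cre- replicate 1, 0.44 without Cre- replicate 3 and 0.081 without Cre+ replicate 4, and 0.35 in DESeq2.

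In the other direction Hp, which encodes haptoglobin, had 9, 147, 0 and 3 UMIs (interaction -6.52), and without Cre- replicate 3 its interaction was -3.16 (edgeR adjusted p = 0.42). Wfdc12 stood at 144, 117, 30.8 and 0.299 (interaction -5.10) and Vcam1 stood at 262, 88.5, 20.5 and 3.59 (interaction -4.99). Without Cre+ replicate 4 these interactions were -2.89 and -3.13, and the Vcam1 call was lost without Cre- replicate 1 (-3.99, edgeR adjusted p = 0.32). The Wfdc12 call was lost in DESeq2 (adjusted p = 0.32) and with the study's upper limits and all libraries kept (-2.86, edgeR adjusted p = 0.14). Pamr1 stood at 6.65, 8.35, 5.13 and 1.79 (interaction -5.42) and rested on 1 to 6 gated UMIs a library. In the other epithelial cells it stood at 2.02, 1.24, 3.13 and 24.7. Its interaction was -1.66 without Cre+ replicate 4, lost its call without either Cre- library and in DESeq2, and turned to 2.48 with the study's upper limits and all libraries kept.

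The agouti gene, whose symbol is a, stood at 0, 6.68, 374 and 44.3 in gated cells and at 0.185, 0.136, 499 and 116 in the other epithelial cells, so that both Cre+ libraries were above both Cre- libraries in each class (interaction -5.38). That interaction rested on 0 and 4 gated UMIs in the Cre- libraries and turned without Cre- replicate 3 (4.34) and with the study's upper limits and all libraries kept (2.09). The genotype difference of the agouti gene in gated cells was not called by edgeR. Agouti controls coat colour, and the study told its littermates apart by coat, yellow for Cre+ and black for Cre-. Coat colour thus went with the genotype, and its part in this difference was not tested.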

How the results depend on the processing

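The class comparison gave between 1084 and 2149 called genes over the alternatives that keep the block and leave out no named mouse (1504 as reported) and between 861 and 1443 with 1 mouse left out. Of the 1504 genes, 829 were among the 1185 called with the study's upper limits and 1390 among the 2149 called in gated cells low in luminal genes with small libraries kept. Without the replicate block, which pairs the classes of a mouse, it gave 1072 and lost the calls of Aldoa, Atp2a3, Cldn3, Csn3, Cst6, Egfr, Foxo3, Gucy1b1, Igfbp5, Krt6a, Lalba and Scgb1b27. Of the values of named genes in that comparison 921 kept direction and call, 51 lost the call and 12 turned, all 12 in genes not called: Ube3a (0.111 with the study's upper limits of 5000 genes and 30000 UMIs a cell, 0.167 with libraries under 10 gated cells kept, -0.137 to 0.0457 with 1 mouse left out, 0.00457 with RLE, 0.0190 with DESeq2), Esr1 (1.22 and 0.458 with the upper limits, 0.250 low in luminal genes) and Pgr (-0.0759 with the gate applied to counts thinned to 2000 UMIs a cell, -1.67 to 0.885 with 1 mouse left out, -0.646 with DESeq2, -1.47 without the block). The shares' difference ran from -0.403 to 4.94 percentage points of epithelial cells and from -0.166 to 2.12 of all barcodes when 1 mouse was left out, turning without Cre+ replicate 4.

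The genotype count of 0 became 1 with the gate on thinned counts, 4 with DESeq2, 173 without a filter on low counts, and 2 to 177 with 1 mouse left out. The interaction count of 66 became 16 with the upper limits and small libraries kept, 30 without doublets, 5 with DESeq2, and 32 to 435 with 1 mouse left out. Its values turned for Saa2 (-0.157 without doublets, -1.37 low in luminal genes), Saa1 (-0.188 with the gate on thinned counts, -0.676 without doublets), Pamr1, a and Frmd8 (2.48, 2.09 and 0.156 with the upper limits and small libraries kept) and a (-6.47 to 4.34 with 1 mouse left out). In 38 further values of named genes the interaction call was lost, with the direction kept. The causes were not tested.

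The settings that keep libraries under 10 gated cells were chosen after seeing the data. The planned genotype and interaction fits with the upper limits and in gated cells low in luminal genes were not run, since 1 library a genotype was left. The genotypes share no replicate numbers. With 11 to 20 gated cells in 3 libraries, genes under about 10 CPM rest on few UMIs.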
